A study of Mus musculus with 4 samples.

Results

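The 9 genes described here are the core of the Sonic hedgehog pathway: the ligand Shh, its co-receptor Boc, the receptor Ptch1, the transducer Smo, the Gli inhibitor Sufu, the transcription factors Gli1, Gli2 and Gli3, and the ligand-binding inhibitor Hhip. They were taken by symbol, and all 9 were found among the 34968 symbols shared by the 4 libraries. The libraries are bulk RNA-seq of mouse neurons derived from embryonic stem (ES) cells, sorted for tdTomato on day 12 of differentiation as embryoid bodies. Both lines come from the same Dlx6-Cre; Ai9 parental line on a C57/BL6 background, in which Dlx6-driven Cre turns on tdTomato in neurons of subpallial lineages. The N/D line carries Nkx2-1, driven with a tetracycline transactivator from a Nestin promoter, and Dlx2 behind a tetracycline-responsive promoter, while in the N/D/S line that promoter drives Dlx2 and St18. Each line was grown from selected clones, and each gave 2 libraries, numbered replicate 1 and replicate 2. Both lines received the Wnt inhibitor XAV-939 and then SAG, a small molecule that activates Smo. The comparison asks what added St18 does to neurons of the medial ganglionic eminence (MGE), the ventral forebrain region that makes pallidal projection neurons and cortical interneurons.

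Hedgehog signaling runs through a chain of inhibition. Without ligand, Ptch1 holds Smo inactive, and Gli3 and Gli2 are processed into repressors with the help of Sufu. When Shh binds Ptch1, aided by Boc, Smo enters the primary cilium and Gli proteins become activators, which raise Gli1, Ptch1 and Hhip as direct targets. In the forebrain, Shh induces Nkx2-1 and the MGE, and Shh is itself made by young MGE neurons. SAG binds Smo directly, so it acts below Shh and Ptch1.

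Values are TPM (transcript abundances), which are scaled for transcript length and for library total and can be compared between genes. They keep no read counts, so depth is unknown. Libraries are named by their labels, because St18 did not separate the lines: in replicate order, its values were 28.5 and 26.6 TPM for N/D and 44.4 and 15.9 TPM for N/D/S. Any direction between the lines rests on those labels. The library labelled N/D replicate 1 stood apart, with 26.1% of the 12975 genes tested listed at 0, while the other N/D library had 0.301% and the N/D/S libraries 0.578% and 2.2%, in replicate order. Even Polr2a, the large subunit of RNA polymerase II, had 0.00239 TPM there and between 4.98 and 17.4 TPM in the other libraries. A value of 0 in that library is therefore reported only as a listing at 0. Nothing in the labels says that replicates were separate cultures, so p-values measure the spread between these libraries.

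Shh (GRCm38, chromosome 5, 28456815 to 28467256, minus strand) had 10.5 TPM in N/D replicate 2 and 8.09 TPM in N/D/S replicate 1. In N/D/S replicate 2 it had 0.132 TPM, and in N/D replicate 1 it was listed at 0. The ligand was thus present in 1 library of each line and near or at 0 in the other, and the lines overlapped. Nkx2-1, which both lines carry as a transgene, was also higher in N/D replicate 2 (48.6 TPM) and N/D/S replicate 1 (39.6 TPM) than in N/D replicate 1 (16.5 TPM) and N/D/S replicate 2 (18.3 TPM). Its part in the Shh values was not tested, and whether its TPM include transcripts of the transgene is not known. Boc (chromosome 16, 44485049 to 44558897), a cell-surface co-receptor, was high and low in the same libraries at a lower level. It had 0.804 TPM in N/D replicate 2, 1.20 TPM in N/D/S replicate 1 and 0.0155 TPM in N/D/S replicate 2, with 0 listed in N/D replicate 1. Most genes tested differed in the same directions as Shh, Nkx2-1 and Boc. In N/D/S, 72.5% of them were higher within replicate 1 and 74.7% were lower within replicate 2.

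Ptch1 and Smo, the receptor pair, were detected in 3 libraries at more than 2 TPM. Ptch1 (chromosome 13, 63508328 to 63573598) had 5.63 TPM in N/D replicate 2, 4.43 TPM in N/D/S replicate 1 and 2.54 TPM in N/D/S replicate 2, against 0.00307 TPM in N/D replicate 1. Smo (chromosome 6, 29735503 to 29761365) had 10.4 TPM in N/D replicate 2, 9.83 TPM in N/D/S replicate 1 and 2.70 TPM in N/D/S replicate 2, and 0.349 TPM in N/D replicate 1. For both genes the N/D libraries lay on either side of the N/D/S libraries. Sufu (chromosome 19, 46396896 to 46488804), which binds Gli proteins and keeps them from the nucleus, was the one member well above 0 in all 4 libraries. It had 19.6 and 8.09 TPM in N/D and 12.0 and 6.56 TPM in N/D/S, in replicate order, with overlap between the lines. Its highest value was in N/D replicate 1, where each of the other 8 members had its lowest, and Sufu made up 98.2% of the summed TPM of the members there. In the other libraries that share was between 21.8% and 49.5%.

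The Gli factors were all low. Gli1 (chromosome 10, 127329882 to 127341974), an activator and the usual readout of pathway activity, had 0.293 TPM in N/D replicate 2 and 0.472 TPM in N/D/S replicate 1. In N/D/S replicate 2 it had 0.00569 TPM, and in N/D replicate 1 it was listed at 0. Gli2 (chromosome 1, 118834132 to 119053619), the main activator in the neural tube, had nearly the same values, with 0.260 TPM in N/D replicate 2, 0.371 TPM in N/D/S replicate 1, 0.0137 TPM in N/D/S replicate 2 and a listing at 0 in N/D replicate 1. Neither reached 0.5 TPM in any library. Gli3 (chromosome 13, 15463235 to 15730026), the main repressor, differed from both in N/D/S replicate 2, where it had its highest value of 1.28 TPM. It had 0.921 TPM in N/D replicate 2, 0.780 TPM in N/D/S replicate 1 and 0.00196 TPM in N/D replicate 1. Gli3 was above Gli1 and Gli2 in the 3 libraries other than N/D replicate 1, where all 3 genes were at or near 0. Hhip (chromosome 8, 79965851 to 80058006), a target that sequesters ligand, had 1.5 TPM in N/D/S replicate 1, 0.218 TPM in N/D replicate 2 and 0.0025 TPM in N/D/S replicate 2, with 0 listed in N/D replicate 1. For each of these 4 genes the lines overlapped.

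**Figure D1:**
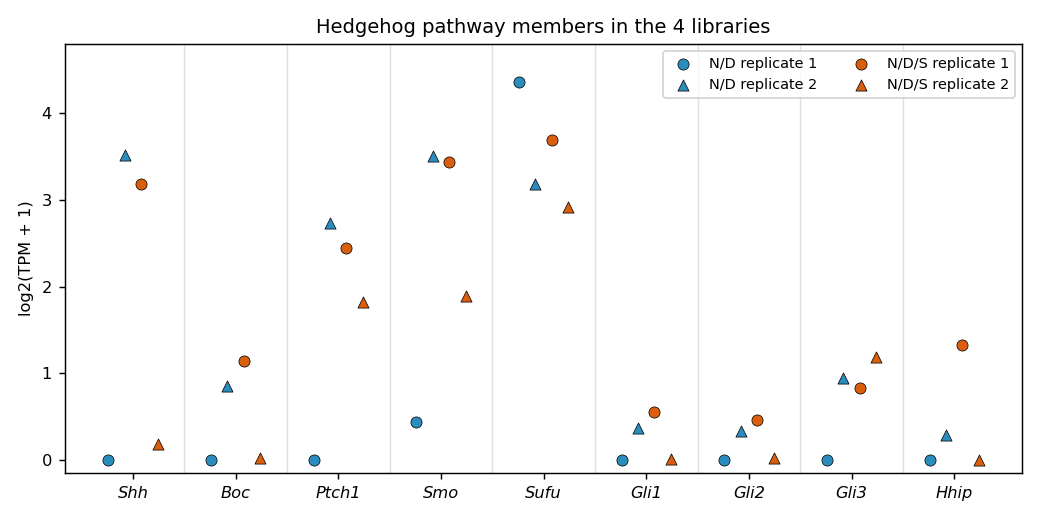
Level of each member in each library, as log2(TPM + 1); blue points are N/D, orange points are N/D/S, circles are replicate 1 and triangles are replicate 2. Only Sufu is well above 0 in N/D replicate 1, and Shh is high in 1 library of each line.

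By median TPM over the 4 libraries the order of the members was Sufu (10.0), Smo (6.27), Shh (4.11), Ptch1 (3.49), Gli3 (0.850), Boc (0.410), Gli1 (0.149), Gli2 (0.137) and Hhip (0.110). The ranges over libraries overlapped for all 8 pairs of neighbours in that order. N/D replicate 1, where Shh and Boc were listed at 0 and Ptch1 and Gli3 were near 0, gives no order among these genes. In the other 3 libraries Ptch1 was above Gli3 and Boc above Gli1 each time, while Shh was above Ptch1 in 2. Ptch1 was above its fellow targets Gli1 and Hhip in all 3. Across all genes tested, those closest to Ptch1 over the 4 libraries, by Euclidean distance of log2(TPM + 1), were Ptx3 (0.1), Cwf19l2 (0.126) and B3gntl1 (0.140). The closest to Gli1 were Gm48348 (0.808), 4933424G06Rik (0.810) and Tgfbi (0.834), at a larger distance because genes as low as Gli1 did not enter the test.

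Of the 6 members with a promoter window in the RefSeq table (GRCm38.p6, 250 bases before to 50 after the start), Ptch1 and Gli2 are shown, the first as the direct target with the highest level and the second as the one window with a match to the Gli core motif. The full motif GACCACCCA was searched on both strands and stands in 0 of the 6 windows and in 0.253% of all 32851 windows. Its core ACCACCC, which is part of the full motif, stands in 1 of the 6 and in 4.61% of all windows. In Gli2 the match is on the opposite strand, in capitals below, and begins 205 bases before the start. The 250 bases before each start follow, 5′ to 3′ in the direction of the gene. The first is the minus strand of chr13:63565736-63565985 and the second the minus strand of chr1:119053620-119053869. The longest annotated Ptch1 transcripts begin further upstream than this window.
Ptch1: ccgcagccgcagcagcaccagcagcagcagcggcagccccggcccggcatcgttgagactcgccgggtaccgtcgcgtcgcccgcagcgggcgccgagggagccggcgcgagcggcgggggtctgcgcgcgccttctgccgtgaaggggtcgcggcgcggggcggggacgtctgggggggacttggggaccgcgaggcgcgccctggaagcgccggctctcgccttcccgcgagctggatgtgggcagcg
Gli2: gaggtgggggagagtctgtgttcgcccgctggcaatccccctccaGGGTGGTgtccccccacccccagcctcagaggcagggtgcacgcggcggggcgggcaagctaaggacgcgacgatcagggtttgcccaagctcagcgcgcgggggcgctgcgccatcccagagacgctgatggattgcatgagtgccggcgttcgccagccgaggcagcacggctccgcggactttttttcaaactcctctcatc

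The windows of the members were rich in G and C. The share of G and C was 76.3% in Ptch1, 73.7% in Hhip, 71.0% in Gli3, 67.7% in Smo, 67.3% in Gli2 and 56.3% in Sufu, against a median of 52.7% over all windows. Sufu had the lowest share of the 6. The dinucleotide CG occurred 47 times in Ptch1 and 12 times in Sufu, against a median of 7. These are descriptions of the sequences, and the relation of base composition to the values was not tested.

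Next, the lines were compared. Of the 9 members, 4 passed the filter of at least 1 TPM in at least 2 libraries (Shh, Ptch1, Smo and Sufu), and Gli1, Gli2, Gli3, Hhip and Boc did not. None of the 4 differed between N/D/S and N/D by limma with Benjamini-Hochberg adjustment over all 12975 genes tested, of which 0% were called in either direction. The same limma fit gave 8 genes (0.0617%) at an unadjusted p under 0.05, no member among them. That number ranged up to 486 over the other settings with all libraries, reached with upper quartile scaling. The fit by limma with a variance trend called 5 genes higher and 1 lower in N/D/S, with 0 members among them. On the log2(TPM + 1) scale, the log2 fold change (N/D/S relative to N/D) was −0.08 for Shh (standard error 1.56, 95% interval −3.77 to 3.61), 0.77 for Ptch1 (1.21, −2.09 to 3.63), 0.69 for Smo (1.32, −2.43 to 3.82) and −0.47 for Sufu (1.03, −2.89 to 1.96). The adjusted p of each was 1.00 by limma. The intervals include large changes in either direction, so these libraries do not show that the lines were alike. The median of the 4 was 0.31, beside 0.26 over all genes tested.

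These values turned on single libraries. Without N/D replicate 1, Ptch1 was at −0.60, Smo at −0.84 and Sufu at 0.12, and Smo was also below 0 without N/D/S replicate 1 (−0.08) and with quantile normalization (−0.35). Shh moved to 1.42 without N/D/S replicate 2 and to 1.68 without N/D replicate 2. In the latter fit, limma gave every gene the same standard error and called 2213 genes higher and 160 lower in N/D/S, with 0 members among them. For the 5 members that were not tested, the mean difference in log2(TPM + 1) was 0.54 for Gli3, 0.52 for Hhip, 0.16 for Boc, 0.10 for Gli1 and 0.07 for Gli2. Only the Gli3 difference was larger than the standard deviation between libraries of a line, which was 0.50 for Gli3 and 0.67 for Hhip. Without N/D replicate 1, the Gli3 difference was 0.07. None of the 9 members had lines that did not overlap. The share was 16.9% over the genes tested, a set that held only 4 of the members, too few to read their count against it. With 2 libraries in each line, a two-sided exact permutation test of any single member cannot give a p below 0.333.

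**Figure D2:**
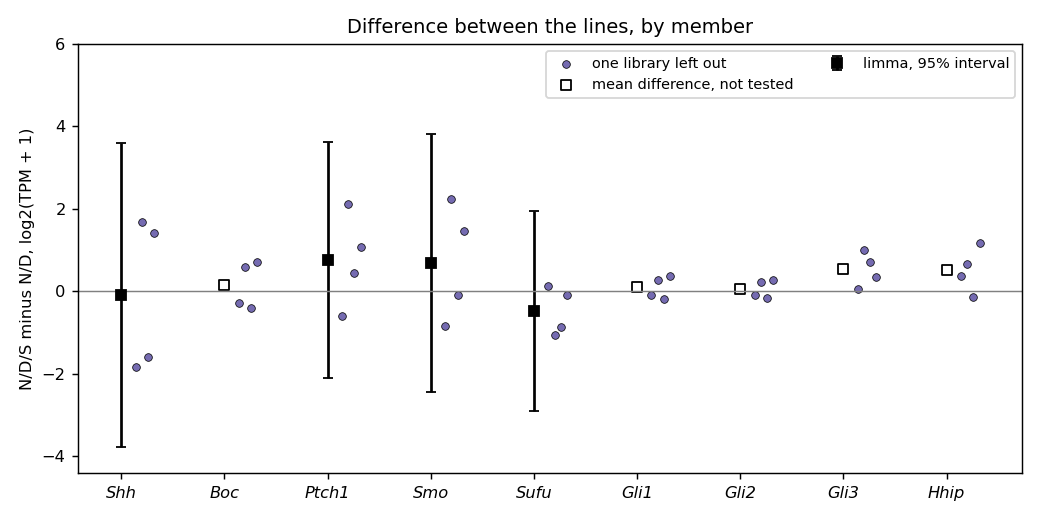
Difference of N/D/S minus N/D in log2(TPM + 1) for each member. Filled squares with bars are limma estimates with 95% intervals, open squares are mean differences of members that were not tested and small circles are the estimates with each of the 4 libraries left out in turn; every bar crosses 0, and the circles lie on both sides of 0 for all members but Gli3, whose lowest is 0.07.

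Low values of the members were then set against those of other genes of the same level in the same line. Of the 3856 genes with 5 to 20 TPM in N/D replicate 2, 58.1% had under 10% of that value in N/D replicate 1, and so did Shh, Ptch1 and Smo but not Sufu. Of the 2884 genes with 0.2 to 1 TPM, 74.8% did, and so did Gli1, Gli2, Gli3, Hhip and Boc. The members other than Sufu thus went the way of most genes of their level in that library. Between the N/D/S libraries the shares were smaller. Of the 3534 genes with 5 to 20 TPM in N/D/S replicate 1, 9.56% had under 10% of that value in N/D/S replicate 2, among them Shh but neither Smo nor Sufu. The share was 27.7% of genes with 1 to 5 TPM, among them Hhip and Boc but not Ptch1, and 51% of genes with 0.2 to 1 TPM, among them Gli1 and Gli2 but not Gli3. For Shh, Hhip and Boc, most genes of their level did not share the low value in N/D/S replicate 2.

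**Figure D3:**
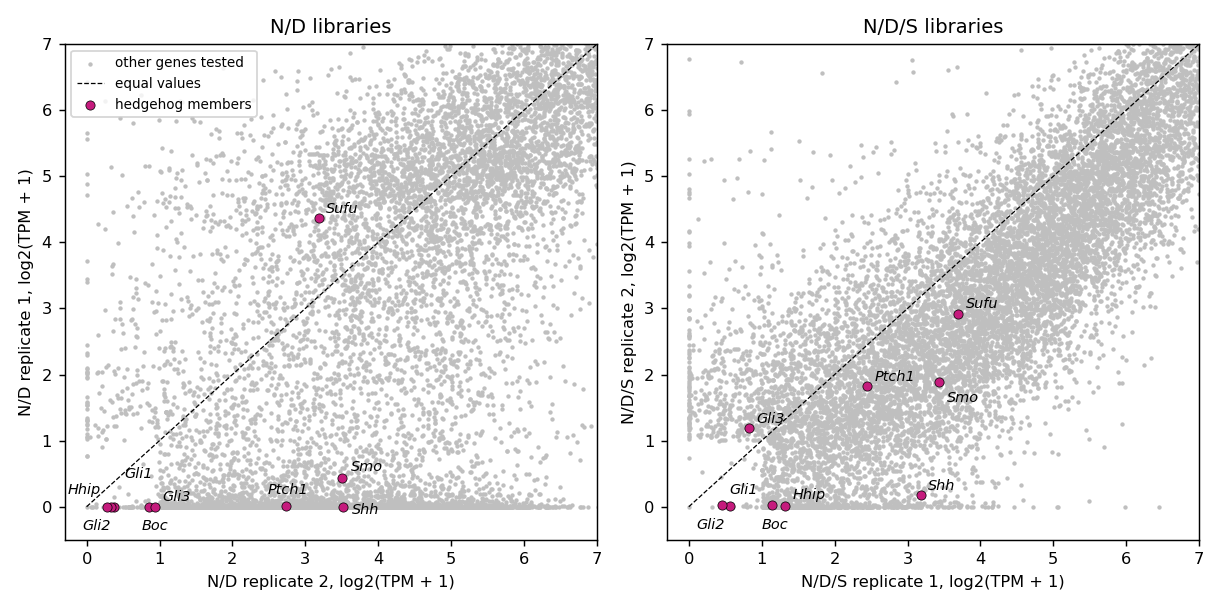
Each library plotted against the other library of its line, as log2(TPM + 1), with the axes ending at 7. Gray points are genes tested, labelled points are the 9 members and the dashed line marks equal values; most members lie along the lower edge for N/D replicate 1, and Shh, Boc, Hhip, Gli1 and Gli2 lie there for N/D/S replicate 2.

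Cell type markers were measured beside the members. All 8 markers of postmitotic neurons were above 0 in every library, with summed TPM of 4507 and 3311 in N/D and 5087 and 3369 in N/D/S, in replicate order, and all 8 subpallial GABAergic markers were too, at 567 and 1148 in N/D and 1321 and 500.2 in N/D/S. The GABAergic sum was thus higher in the same library of each line as Shh, and most genes tested differed in these directions within each replicate number. The 9 neural progenitor markers, of cells in which hedgehog targets are usually active, summed to 489 and 1227 TPM in N/D and 519 and 711 TPM in N/D/S, with Hes5 and Mki67 at 0 in N/D replicate 1. Fabp7, also made by glia, gave 906 TPM of the sum in N/D replicate 2 and 506 TPM in N/D/S replicate 2, and the other 8 markers summed to 355 and 320.2 TPM in N/D and 339.9 and 206 TPM in N/D/S. Of these, Vim, Hes1 and Pax6 were highest in N/D replicate 1, Sox2, Mki67 and Top2a in N/D replicate 2, Nes in N/D/S replicate 1 and Hes5 in N/D/S replicate 2, so they shared no order. Sox2 was lowest in N/D replicate 1, at 14.47 TPM against 28.3 to 86.3 TPM in the others. The 8 glial markers were all listed at 0 in N/D replicate 1 and summed to 195 TPM in N/D replicate 2, 18.1 TPM in N/D/S replicate 1, where Gfap and Aqp4 were at 0, and 74.1 TPM in N/D/S replicate 2, where Aqp4 was. The 6 pluripotency markers summed to 0.247 and 186 TPM in N/D and 3.60 and 293 TPM in N/D/S, the 6 mesenchymal markers to 0.0778 and 46.8 TPM and 7.56 and 27.6 TPM, the 5 glutamatergic markers to 17.3 and 3.46 TPM and 19.3 and 1.28 TPM, and the 6 markers of endothelium and blood to 38.8 and 17.1 TPM and 5.30 and 23.0 TPM. Of the pluripotency sums, Dppa5a alone gave 164 TPM in N/D replicate 2 and 266 TPM in N/D/S replicate 2. Nanog, Zfp42 and Tdgf1 were higher in N/D replicate 2 than in N/D/S replicate 2, and Pou5f1 and Esrrb were lower. Pecam1 alone gave 38.75 TPM in N/D replicate 1, where Cdh5, Cldn5 and Hba-a1 were listed at 0. In bulk samples, fewer cells of a type and less RNA per cell cannot be told apart. The part of these cell types in the values of the members was not tested.

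A further 61 genes of the pathway were read from lists of ligand processing, receptors, signal transducers, target genes, ventral patterning factors and the primary cilium. Of these, 50 were tested, and by limma with Benjamini-Hochberg adjustment 0 rose and 0 fell, with a lowest unadjusted p of 0.0834. Without N/D replicate 2, 10 of the 50 were called, where 18.3% of all genes tested were. The median log2 fold change of the 50 was 0.41, beside 0.26 over all genes tested. It turned to −0.25 without N/D replicate 1 and was 1.27 without N/D replicate 2, where the median over all genes tested was −0.29 and 0.88. For the 22 of the 50 that reached 1 TPM in every library it was −0.06, beside −0.15 over all genes that did so. The lines did not overlap for 9 of the 50, 8 higher in N/D/S and 1 higher in N/D, where 8.69% and 8.23% of all genes tested did so. Of the 61, 23 were listed at 0 in N/D replicate 1, while the other N/D library listed 0 of them so, N/D/S replicate 1 listed 3 and N/D/S replicate 2 listed 5.

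Of the genes that make and release ligand, 5 of 7 were tested. Disp1, which frees lipid-bearing ligand from the cell, had 9.58 TPM in N/D replicate 2, 12.2 TPM in N/D/S replicate 1 and 8.80 TPM in N/D/S replicate 2, with 0 listed in N/D replicate 1. Scube1, a secreted carrier, had 11.1, 14.3 and 4.10 TPM in the same 3 libraries and was also listed at 0 in N/D replicate 1. Unlike Shh, both were thus clearly present in N/D/S replicate 2. Hhat, which attaches palmitate to Shh, had 0.0107 and 2.19 TPM in N/D and 4.44 and 3.14 TPM in N/D/S, without overlap between the lines. The other ligands Ihh and Dhh did not pass the filter.

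Of the receptors and co-receptors, 3 of 6 were tested. Gpc3, a glypican that competes for ligand, had 0.0618 and 23.1 TPM in N/D and 14.7 and 2.37 TPM in N/D/S, the same order of libraries as Smo. Gas1, a co-receptor beside Boc, had 0.734 and 2.22 TPM in N/D and 8.24 and 0.158 TPM in N/D/S. For both, the N/D/S libraries differed by more than the lines did.

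Signal transducers below Smo were tested for 17 of 18 genes, and most were present in all libraries. Prkaca, a catalytic subunit of the protein kinase A that primes Gli proteins for processing, varied little, at 153 and 160.4 TPM in N/D and 167 and 169 TPM in N/D/S. These lines did not overlap, at a log2 fold change of 0.10 (standard error 0.95). Csnk1a1, a casein kinase of the same step, had 141 and 197 TPM in N/D and 206 and 73.3 TPM in N/D/S. Iqce, which anchors the Evc complex in the cilium, had 9.25 TPM in N/D replicate 2 and 12.1 and 15.1 TPM in N/D/S, with a listing at 0 in N/D replicate 1. Gpr161, a ciliary receptor that holds the pathway off, was the one tested pathway gene for which both N/D libraries were above both N/D/S libraries, at 12.7 and 5.91 TPM against 4.55 and 3.61 TPM in N/D/S. Its log2 fold change was −0.94 (standard error 0.99, adjusted p = 1.00 by limma).

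Of the 9 general target genes, 5 were tested. Igfbp4, an insulin-like growth factor binding protein, had 37.9 and 132 TPM in N/D and 84.2 and 95.7 TPM in N/D/S. Ccnd2, a G1 cyclin, had 6.97 and 107 TPM in N/D and 55.7 and 54.3 TPM in N/D/S. For both, the N/D libraries lay on either side of the N/D/S libraries, as for Ptch1 and Smo. Of the ventral patterning factors, which Shh induces along the neural tube, 6 of 7 were tested. All 7 were under 0.1 TPM in N/D replicate 1. Nkx6-2 had 29.5 TPM in N/D replicate 2, 36.3 TPM in N/D/S replicate 1 and 82.1 TPM in N/D/S replicate 2, with a log2 fold change of 3.34 (standard error 1.65, adjusted p = 1.00 by limma). Nkx2-2 had 11.9, 7.14 and 25.1 TPM in the same 3 libraries, and Nkx2-9 had 2.87, 3.54 and 10.4 TPM. These 3 homeodomain factors were highest in N/D/S replicate 2. The other 3 tested factors, named after their values were seen, were highest in N/D replicate 2 instead, with Foxa2 at 10.6 TPM, Nkx6-1 at 5.00 TPM and Olig2 at 20.9 TPM. Their N/D/S replicate 2 levels were 5.88 TPM for Foxa2, 2.69 TPM for Nkx6-1 and 5.88 TPM for Olig2.

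All 14 genes of the primary cilium, the organelle in which Smo signals, were tested. Kif3a, a motor subunit that carries cargo to the tip, had 173 and 334 TPM in N/D and 264 and 111 TPM in N/D/S. Ift27, a small GTPase of the transport complex, had 56.1 and 108 TPM in N/D and 100.4 and 173 TPM in N/D/S. Ift122 had 0.0337 and 14.9 TPM in N/D and 22.1 and 17.9 TPM in N/D/S, and Ift172 had 6.54 TPM in N/D replicate 2 and 12.6 and 6.55 TPM in N/D/S, with a listing at 0 in N/D replicate 1. The lines did not overlap for these 2 transport genes, and for both the lowest value was in N/D replicate 1.

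**Figure D4:**
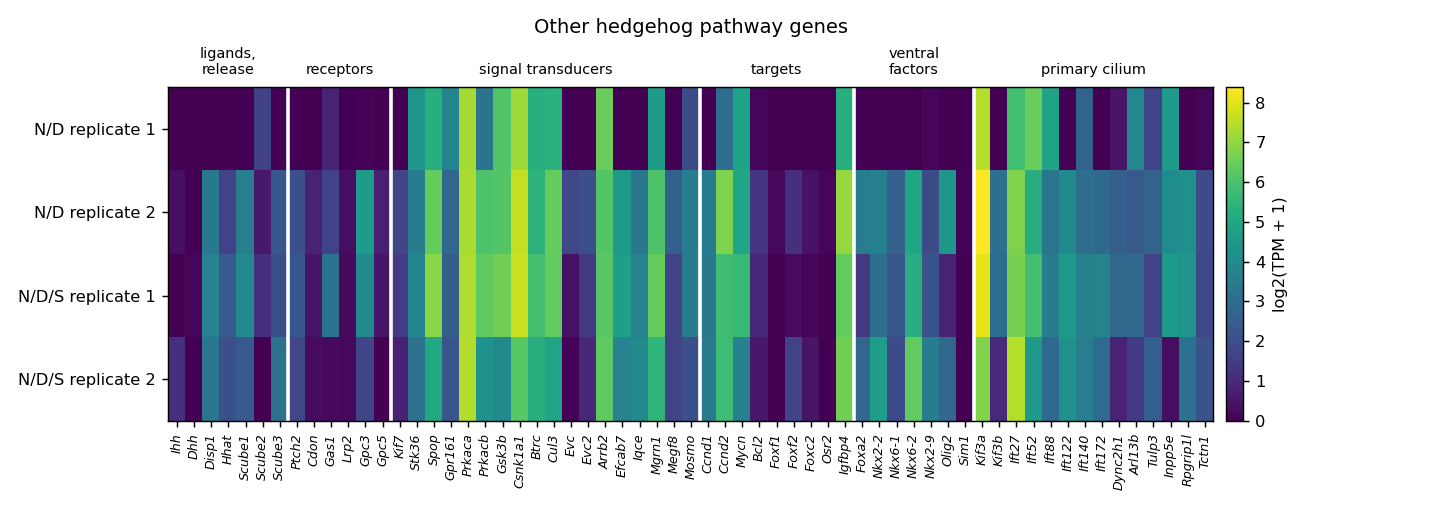
Level of the 61 other pathway genes in the 4 libraries, as log2(TPM + 1), grouped by role from left to right. N/D replicate 1 is dark for most ligand, receptor and ventral genes, while several kinases and cilium genes are bright in every library.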

How the data were processed

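The data are bulk RNA-seq of sorted tdTomato+ neurons, with 2 libraries each for N/D and N/D/S, grouped by their titles. The authors pseudoaligned paired-end reads to a mouse transcriptome with kallisto 0.44.0 (GRCm38, per the labels) and deposited 1 TPM value for each gene symbol and library. How transcripts were combined into genes, and the transcriptome release, are not given in the sources used here. Depth is unknown, and no interval on counts was made. The files were joined on symbol, and 24 symbols turned into dates were left out. Differences were fitted with limma 3.58.1 in R 4.3.3 on log2(TPM + 1), for the 12975 genes that reached 1 TPM in 2 or more libraries, adjusted after Benjamini and Hochberg at a threshold of 0.05, and the fit was tested on simulated data. Positions come from GENCODE M21. The 9 members, the lists and the tests were chosen with earlier results of these data known. Besides the members, a rule named for each list the 2 genes with the highest mean TPM. It also named the 2 with the largest fold change among those without overlap between the lines, and the 3 genes closest to Ptch1 and to Gli1. Outside that rule, Ihh, Dhh, Foxa2, Nkx6-1, Olig2, Polr2a, Nkx2-1, St18 and single cell type markers are named too. Alternatives were other pseudocounts, filters and scalings, a natural log, a variance trend, replicate number as a block, and each library left out. The sleuth test of the study needs kallisto output not used here and was not run.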

Additional observations from a re-analysis of the deposited data

How the results depend on the processing

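For the 9 members, 108 alternative values were computed, of which 58 came with a test by limma, and no member passed the adjusted threshold in those 58. Shh moved from −0.08 to 0.42 with a pseudocount of 0.1, where Ptch1 was at 2.17, Gli3 at 1.77, Smo at 1.28 and Hhip at 1.18, and Smo was at −0.35 with quantile normalization. The cause was not tested. With one library left out in turn, the log2 fold change ranged from −1.84 to 1.68 for Shh, −0.60 to 2.13 for Ptch1, −0.84 to 2.23 for Smo and −1.05 to 0.12 for Sufu. For the untested members it ranged from 0.07 to 1.01 for Gli3, −0.14 to 1.18 for Hhip, −0.40 to 0.71 for Boc, −0.18 to 0.37 for Gli1 and −0.15 to 0.29 for Gli2. A line left with 1 library was assumed to vary like the other. The numbers of genes called were 0 in all alternatives with every library except the variance trend (5 higher and 1 lower). The number at an unadjusted p under 0.05, 8 in the reported fit, was 486 with upper quartile scaling, 224 with the variance trend, 207 with no filter, 42 when every library had to reach 1 TPM and 8 to 26 in the other settings with all libraries. With one library left out it ranged from 3 to 3789, the highest without N/D replicate 2. The calls then ranged from 0 to 2213 higher, 0 to 160 lower and 0 to 10 pathway genes, and the highest of each came without N/D replicate 2. The median of all genes moved from 0.26 to 0.14 with upper quartile scaling and with quantile normalization, to −0.15 when every library had to reach 1 TPM and to 0.02 with no filter. It ranged from −0.29 without N/D replicate 1 to 0.88 without N/D replicate 2. With at least 1 TPM in every library, Sufu alone of the members was tested.

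With the replicate block, the values were unchanged (Shh −0.08, Ptch1 0.77, Smo 0.69 and Sufu −0.47), with 0 genes called by limma after adjustment and 9 at an unadjusted p under 0.05. Libraries with the same number had a correlation of 0.02 between their deviations from the line means, across genes, so they were not treated as pairs. Files with the same number do list the same count of symbols, 35197 for replicate 1 and 35204 for replicate 2 of both lines, which the labels do not explain. The limit that depth sets on genes as low as Gli1 and Gli2 cannot be given, since TPM hold no counts.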
